A study of Arabidopsis thaliana with 36 samples.

Results

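The genes described here fell in wild-type *Arabidopsis thaliana* leaf 6 between T2 and T4 and were already low in *atx1,3,4* triple mutants at T2. They were chosen from measured values. The level of a gene in a group was its log2(FPKM + 1) averaged over 3 libraries. A member had a WT T4 level at least 0.6 under WT T2, and TM1 T2 and TM2 T2 levels at least 0.6 under WT T2. FPKM is the number of fragments scaled by gene length and library depth. The rule kept 337 of 19437 genes, or 1.73%. All 3 differences of the rule share the WT T2 libraries, so they are given as descriptions with no test. Tests below compare only WT T0, WT T6 and the mutant libraries of T0, T4 and T6. Their estimate of the spread comes from all 36 libraries, those of the rule included.

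Leaf 6 was taken from WT plants of the Columbia-0 accession and from 2 isolates, TM1 and TM2, that are homozygous for T-DNA insertions in *ATX1* (SALK_149002), *ATX3* (GABI_128H01) and *ATX4* (SALK_060156), genes for histone H3 lysine methyltransferases. Mutant plants were bolting at T0, WT plants of the same age are labelled as vegetative, and harvests followed at T2, T4 and T6, which are 2, 4 and 6 days later. None of the plants received a treatment, and all grew in long days under low light. Each of the 12 groups is 1 pool of 10 ground leaves that was divided into 3 libraries, so p-values reflect how libraries from the same powder differ, and no spread among plants is known. A WT plant had bolted by T6 as well. Because mutant plants were chosen for bolting at T0, genotype and bolting cannot be told apart.

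The 36 libraries held between 4405524 and 11709917 reads on the listed genes, and the WT T2 libraries held between 5274676 and 11548090. The targeted genes gave reads in every library. *ATX1* had a median of 4.71 FPKM over 12 WT libraries, 3.70 in TM1 and 3.77 in TM2. *ATX3* had 4.53, 5.92 and 5.60, and *ATX4* had 4.42, 2.51 and 3.44. Libraries were made from the 3′ ends of transcripts, and reads 3′ of an insertion say nothing about whether the gene was cut, so these values do not check the labels. Summed FPKM of 6 mesophyll markers was 4695 to 5361 in WT T2, 4402 to 4726 in WT T4 and 4506 to 5217 in the mutant T2 libraries. Of the lists of other organs, none of the shoot meristem genes, 1 floral gene and 3 root genes were measured.

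A leaf that is still growing makes many ribosomes in its cytosol and in its chloroplasts, builds the plastid gene expression and protein folding machinery, divides its cells early, and then enlarges them while it lays down wall and cuticle. Transcripts for these tasks are known to decline as a leaf matures. ATX proteins deposit methyl groups on lysine 4 of histone H3, a mark found at transcribed genes.

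By the values that chose them, members fell in WT by a median of 0.89 on the log2(FPKM + 1) scale from T2 to T4, and the lowest value was -2.79. Their TM1 T2 levels were a median of 0.87 under WT T2, and their TM2 T2 levels a median of 0.80 under it. The medians over all genes were 0.03, 0.07 and 0.09 for the same 3 differences. Of all genes, 6.82% met the limit for the WT fall, 5.33% met it for TM1 and 4.17% for TM2. Members were 25.4% of the genes that met the WT limit and 58.8% of the 573 genes that met both mutant limits. All 6 mutant T2 libraries were below all 3 WT T2 libraries for 294 members, a pattern that 10% of all genes showed and that the rule favours. Just inside the limit lay *AT1G27000*, *PSRP3/2* and *AT5G07800*, whose largest differences were each -0.60. Just outside it lay *SIGF*, *AT5G46730* and *CVP2*, whose largest differences were -0.60 as well.

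Members were mostly well expressed. Their median in WT T2 was 26.3 FPKM, with a range from 0.836 to 5789, against 6.40 for all genes. The rule sets part of this contrast, because a gene with a very low WT T2 level cannot fall by the limit on the log2(FPKM + 1) scale. Of the 337, 310 had a mean of at least 1 FPKM over the 36 libraries and 27 did not. A few rest on very little: 12 members had under 10 reads in each WT T2 library, and 48 had under 100 reads over the 3 of them. *MIR167b*, the precursor of a microRNA that targets auxin response factors, had 30 reads in all 36 libraries and *AT1G35513* had 42. The annotation held 333 members, of which 320 were protein coding, on all 5 chromosomes in shares close to those of all genes (24.9% of members and 26.3% of genes on chromosome 1). Median exon length was 1384 bases in members and 1744 in all genes. FPKM is scaled by gene length while these libraries came from 3′ ends, so FPKM of genes of different length may not compare. Reads of 82 members could include those of an overlapping gene, since strand use in counting is not given in the sources used here. Among the members named below this concerns *AT1G04800*, *CYCA2;3*, *PSRP3/1*, *P40*, *YCF37*, *AT4G17940* and *POR C*. The mirror rule, with each limit turned upward, kept 806 genes.

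The median over members was highest in WT T2 and had fallen by WT T4, as the rule favours. In the mutants it was lower at T0 and lay near the WT T4 level at T2. In the 3 WT libraries it was 4.52, 4.61 and 4.53 at T0, then 4.79, 4.85 and 4.72 at T2, 3.82, 3.75 and 3.87 at T4, and 3.61, 3.71 and 3.68 at T6. TM1 had 4.24, 4.23 and 4.41 at T0 and 3.82, 3.88 and 3.76 at T2, and TM2 had 4.04, 4.04 and 4.06 at T0 and 3.81, 4.00 and 3.96 at T2. All mutant T0 libraries were below all WT T0 libraries, and mutant T2 libraries overlapped WT T4. The rule placed WT T4, TM1 T2 and TM2 T2 alike at least 0.6 under the same WT T2 libraries, so nearness of the mutants at T2 to WT T4 is largely set by the choice of members, here and for each gene below. At T4 and T6 all 18 medians of WT and the mutants lay between 3.51 and 3.87.

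**Figure D1:**
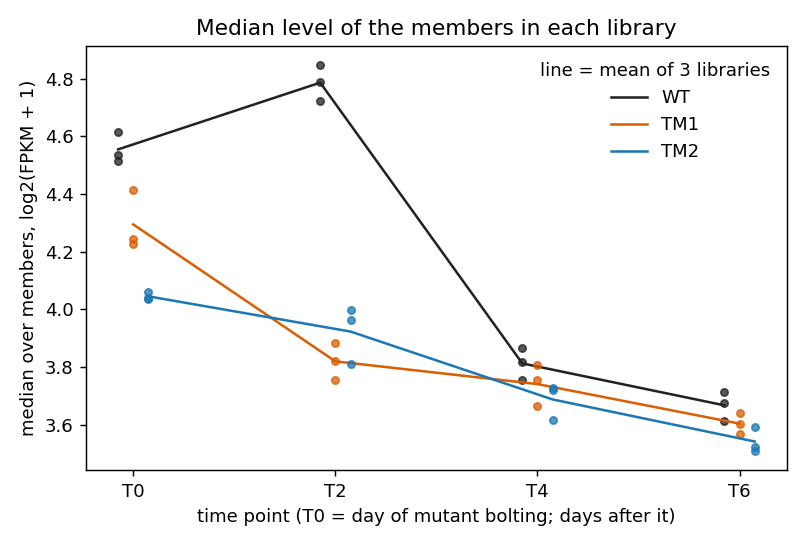
Median log2(FPKM + 1) over the 337 members (vertical axis) in each of 36 libraries at T0, T2, T4 and T6 (horizontal axis), with points for libraries and lines through the means of 3 libraries of WT, TM1 and TM2. WT T2 libraries lie between 4.72 and 4.85, and mutant T2 libraries lie between 3.76 and 4.00, close to WT T4.

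WT T2 was the highest of the 12 groups for 218 members, as the rule favours, and WT T0 for 90. From WT T0 to WT T2, 86 members rose by at least 0.6, 17 fell by as much and 234 stayed within 0.6, with a median change of 0.31 against 0.13 for all genes, which became 0.15 with median ratio scaling and 0.18 with quantile normalization. By these values some members were highest at WT T2 and others at WT T0. The rule favours high values in the WT T2 libraries, so it also favours rises from WT T0 to WT T2. The count of 86 and the median change share this limit. How many members would peak at WT T2 without this choice was not tested. TM2 T6 was the lowest group for 110 members, more than any other.

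Members declined from T0 to T6 in both WT and mutants. With limma on log2(FPKM + 1), Benjamini-Hochberg adjustment over all 19437 genes, an adjusted p under 0.05 and a change of at least 2-fold (in both isolates for the mutants), 110 members were lower and none was higher at WT T6 than at WT T0. That is 32.6% of members, while 4.02% of all genes were lower and 6.94% were higher in this comparison. At an unadjusted p under 0.05, 6 members were higher in it, and a voom fit of recovered reads called none. In the mutants 76 members were lower at T6 than at T0 (all genes, 2.92%) and 1 was higher (all genes, 4.17%). Of the members, 64 were called lower in both courses, 46 in WT alone, 12 in the mutants alone and 215 in neither, which is no test of a difference between courses. Summed FPKM of the 6 mesophyll markers also fell over these days. It was between 12469 and 13883 at WT T0 and between 4735 and 5073 at WT T6, and in the mutants between 10568 and 12469 at T0 and between 3012 and 4467 at T6. By WT T2 this sum was already 4695 to 5361. Much of it was *CAB2*, with a mean of 6256 FPKM at WT T0, 997 at WT T2 and 1084 at WT T6. Of the 6 markers, 2 were called lower at T6 than at T0 in WT and 3 in the mutants. Summed FPKM of 10 xylem markers was between 145 and 165 at WT T0 and between 53.3 and 68.4 at WT T6, and in the mutants between 153 and 183 at T0 and between 44.5 and 57.9 at T6. The part of these cell types in the members' fall was not tested. Because these are whole leaves, fewer cells of a type and less RNA per cell cannot be told apart.

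In the mutants, from T0 to T4, an interval of 4 days, 45 members were lower (all genes, 1.9%) and 1 was higher (all genes, 3.98%). From T4 to T6, 4 members were lower (all genes, 0.556%) and none was higher (all genes, 0.159%). At an unadjusted p under 0.05, 7 members were higher in this last interval of 2 days, and the voom fit called none. No test compared the intervals. With median ratio scaling 68 members were lower from T0 to T4. The 4 were *AT1G04800*, a glycine-rich protein, *AT1G52770*, of the NPH3 family, *AT5G10400*, a histone, and *HMGB6*, a chromatin protein of the HMG box family.

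At T0, before the interval that chose them, 251 members had lower mean levels in the mutants than in WT, with a median difference of -0.25 against 0.04 for all genes. The median was -0.35 in TM2 and -0.15 in TM1, and between the isolates themselves 87 members were higher in TM1 and 4 lower at an unadjusted p under 0.05, with 1 and none called. Past the threshold in both isolates, 9 members were lower, or 2.67%, while 0.52% of all genes were. None was higher (all genes, 0.869%), with 9 higher at an unadjusted p under 0.05 and none by voom. All 6 mutant libraries lay below all 3 WT T0 libraries for 61 members, or 18.1%, against 4.98% of all genes, and above them for 2, against 8.4%. At T6 the median difference was -0.09 against 0.07 for all genes. At T6 11 members were lower, or 3.26% (all genes, 0.597%), and 1 was higher (all genes, 0.417%). The groups at T6 did not overlap for 57 members that were lower in the mutants (all genes, 6.78%) and 6 that were higher (all genes, 10.6%).

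**Figure D2:**
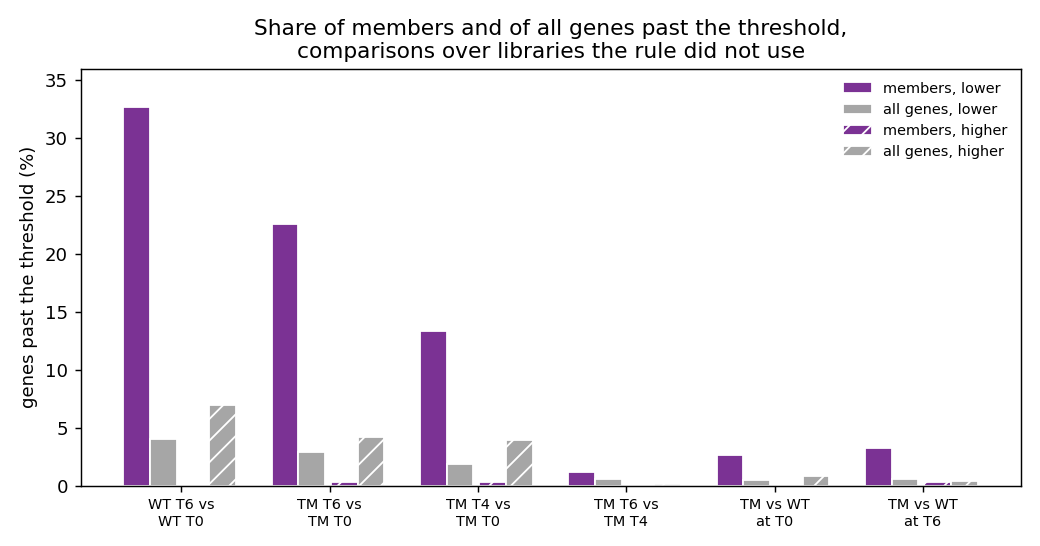
Percentage of the 337 members and of all 19437 genes past the threshold (vertical axis, from 0) in 6 comparisons over libraries that the rule did not use, with lower and higher calls drawn apart. Members stand at 32.6% lower for WT T6 against T0 and 22.6% for the mutants, where all genes stand at 4.02% and 2.92%.

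The classes of members below were drawn up after the members and their values were known, so their counts are descriptions. The 22 pathway lists used beside them caught few members in number, where members were 1.73% of all genes. They held 2 of 23 measured genes for the cell cycle, 1 of 21 for DNA replication and 1 of 20 for leaf growth factors. Further lists held 1 of 32 for arabinogalactan proteins, 1 of 15 for primary wall synthesis and 1 of 45 for auxin. The cytokinin list held 1 of 25 and the chlorophyll synthesis list 1 of 17. None was among 44 nuclear photosynthesis genes, 31 senescence genes or 19 expansins. Nor was any among 37 wax, cutin and cuticle genes, 21 xyloglucan endotransglucosylases or 19 secondary wall genes. Lists of this size are too short to set such counts apart from the share of 1.73%.

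**Figure D3:**
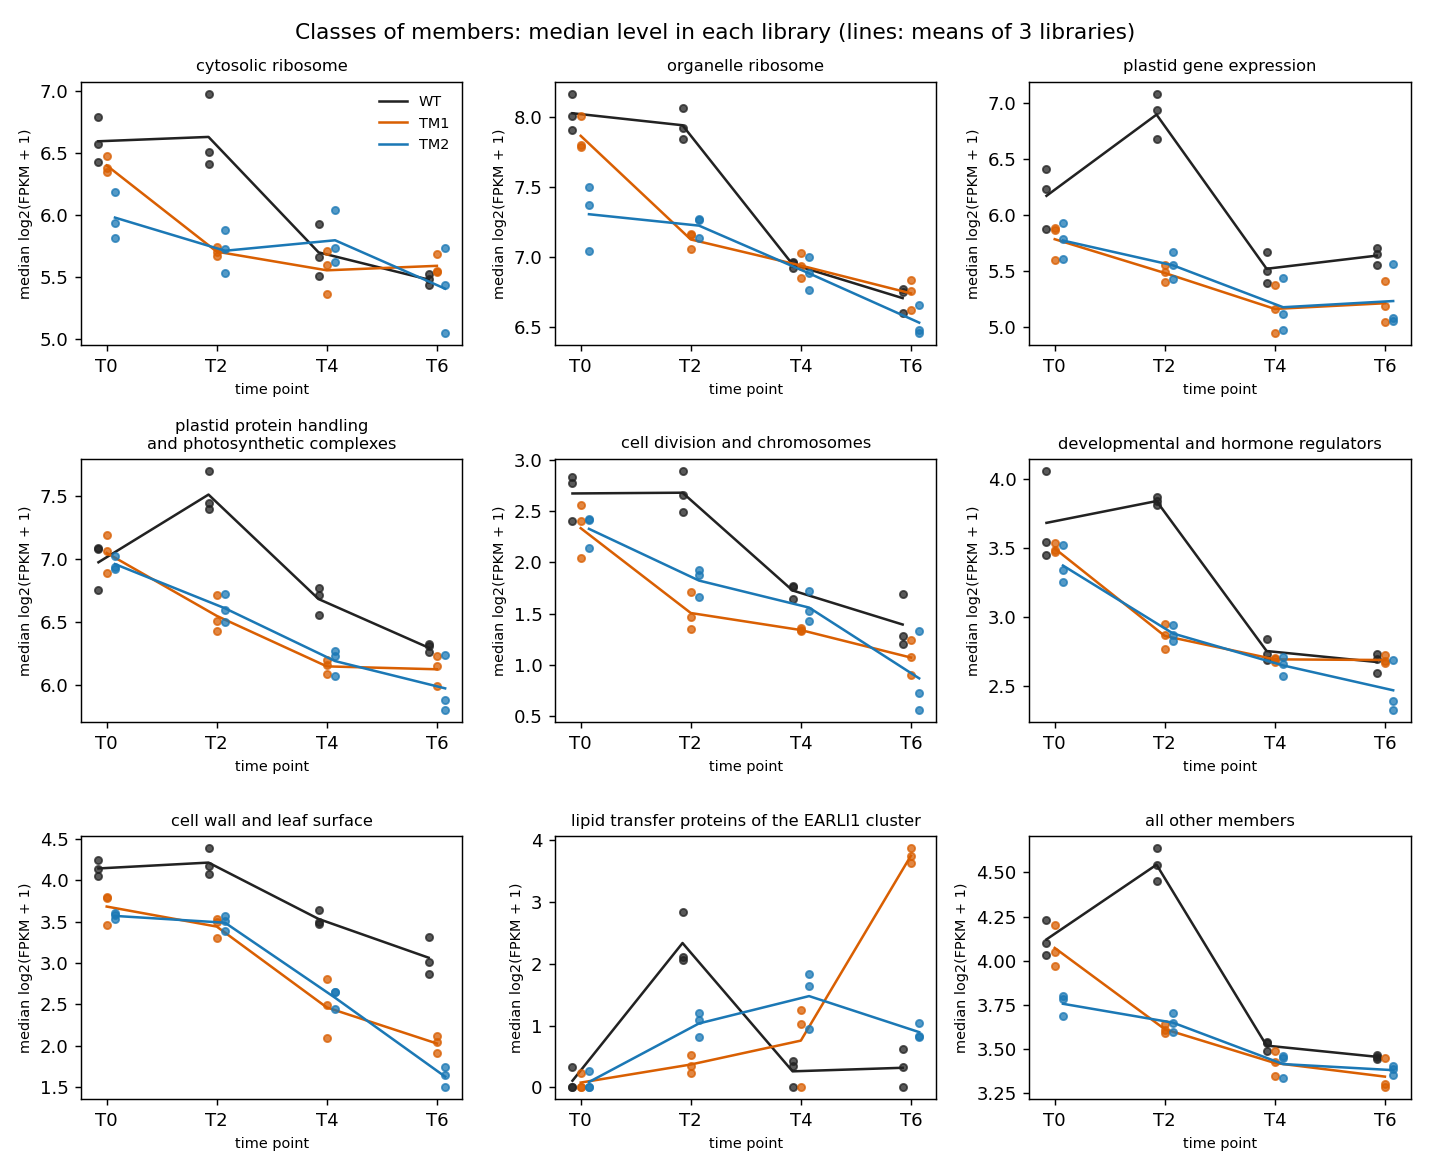
Median log2(FPKM + 1) of 9 classes of members (vertical axes) in each of 36 libraries at T0, T2, T4 and T6 (horizontal axes), with lines through the means of 3 libraries. In most classes mutant libraries at T2 lie near WT T4, while in the class of cell wall and leaf surface genes WT T6 stands at 3.07 and the mutants at 2.02 and 1.62, and the lipid transfer proteins stand at 3.75 in TM1 at T6.

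Ribosomal proteins were the most numerous kind. The word "ribosomal" stood in the RefSeq description of 38 members, or 11.3%, against 1.94% of all genes, and 38 are 10.1% of the 378 such genes. The 25 members that make the cytosolic ribosome had a median of 105 FPKM in WT T2, with a range from 3.58 to 1881. Their median change from WT T2 to WT T4 was -0.97, and TM1 T2 and TM2 T2 were a median of 0.92 and 0.84 under WT T2. From WT T0 to WT T2 they hardly moved, with a median of 0.00.

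*AT3G11120* encodes L41, the smallest protein of the large subunit. It had 1261, 1569 and 1093 FPKM in the WT T0 libraries, 1032, 1166 and 863 at T2, 279.9, 324 and 269 at T4, and 235, 253 and 247 at T6. TM1 had 1248, 824 and 929 at T0 and 378, 295 and 423 at T2, and TM2 had 544, 432 and 1162 at T0 and 668, 743 and 380.1 at T2. Every mutant T2 library was below every WT T2 library and above WT T6, while at T0 the groups overlapped and TM2 libraries of 1 pool differed widely. It fell from T0 to T6 by 2.40 ± 0.25 (SE) in WT, by 1.57 ± 0.25 in TM1 and by 1.31 ± 0.25 in TM2 on the log2 scale, with limma adjusted p of 2.9e-09, 7.4e-06 and 1.0e-04. Without libraries C the mutant call was lost.

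*AT3G08520*, which also encodes L41, had the most FPKM of the class. It had 975, 1695 and 1599 FPKM at WT T0, 1534, 2745 and 1363 at T2, and 461, 424 and 352 at T4, against 424 to 634 over the 6 mutant T2 libraries. The mutant T2 libraries lay far below WT T2 and overlapped WT T4. Near-identical L41 genes can share reads, so these values are uncertain for each gene.

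*RPL24A* encodes L24 of the large subunit and had steadier libraries. It had 512, 449 and 449 FPKM at WT T0, 425, 411 and 426 at T2, 213, 205 and 230.4 at T4 and 153, 156 and 156 at T6. TM1 had 349, 407 and 385 at T0 and TM2 had 285, 289 and 281. At T0 the 3 genotypes formed separate steps, with TM2 lowest. At T6 the mutants had between 134 and 158, within reach of WT.

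At WT T6, 18 of the 25 were lower than at WT T0 (all genes, 4.02%), with a median of -1.21. In the mutants 2 were (all genes, 2.92%), *AT3G11120* and *AT3G56020*, which is a further L41 gene, with a median of -0.66. At T0 the mutants were below WT by a median of 0.51, none past the threshold, with 8 lower at an unadjusted p under 0.05 and none by voom. Median levels of the class at T0 were 6.51 in WT, 6.36 in TM1 and 5.96 in TM2, so TM2 lay further below WT. TM1 was above TM2 by a median of 0.47. In that comparison 18 of the 25 were higher in TM1 at an unadjusted p under 0.05, with 1 called (all genes, 0.314%). At T6 the median difference of the mutants from WT was 0.00, with none called and none at an unadjusted p under 0.05 or by voom. Of all 378 genes described as ribosomal, 60 were lower (all genes, 4.02%) and 8 higher (all genes, 6.94%) at WT T6 than at T0. In the mutants 8 were lower (all genes, 2.92%) and 3 higher (all genes, 4.17%). The change of the mutant difference between T0 and T6, the test of whether the courses differ, called none of the 25 in both isolates, with 4 higher at an unadjusted p under 0.05 and none by voom. In TM2 alone *P40*, which encodes SA of the small subunit, had an interaction of 0.73 ± 0.13 with an adjusted p of 0.00021, under the 2-fold limit. *P40* had 117, 119 and 110.3 FPKM at WT T0, and 68.3, 66.1 and 64 at TM2 T0.

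Upstream of these genes, letters known from ribosomal protein promoters were common. The 250 bases before the annotated 5′ end held the site II letters TGGGCC on either strand in 12 of the 25, or 48%, in 26.2% of 320 members and in 17.2% of 18499 genes. The telo-box core AAACCCT stood in 9 of the 25, or 36%, in 10% of members and in 6.37% of genes. Of 374 measured genes described as ribosomal, 43.9% held site II and 18.2% the telo-box core, and of the 282 members not described as ribosomal 24.8% and 7.45% held them. TGGGCC and its reverse complement GGCCCA may share letters, and so may the ends of a site II and a telo-box core, which also counts as its reverse complement AGGGTTT. Of the 15 motifs searched on both strands, the G-box CACGTG stood in 5.94% of members and 7.56% of genes, and the E2F core TTCCCGC in 2.19% and 1.25%. The remaining 11 were the ACGT core ACGTG, the W-box core TTGAC, the auxin response element TGTCTC, a TCP site GGACCA, the I-box GATAAG and its longer form GATAAGA, the evening element core AATATCT, the mitosis-specific activator core AACGG, the TATA box TATAAA, the L1-box core AAATGCA and the MYB core ACCAAC. They were held by 5% to 47.8% of members and 5.35% to 45.7% of genes, and some of them share letters. The 3 promoters below are shown because they hold both motifs and belong to ribosomal members, with site II and telo-box letters on either strand in capitals, from RefSeq assembly TAIR10.1, 5′ to 3′ on the gene's strand. A match is a description of letters and no site or cause.
AT3G11120 (L41, chr3:3480770-3481019, plus strand): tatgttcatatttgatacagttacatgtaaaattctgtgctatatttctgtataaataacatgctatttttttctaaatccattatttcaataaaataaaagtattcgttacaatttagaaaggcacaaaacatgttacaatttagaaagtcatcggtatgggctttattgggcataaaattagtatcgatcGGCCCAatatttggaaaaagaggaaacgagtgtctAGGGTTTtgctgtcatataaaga
AT3G45030 (S20 family, chr3:16472410-16472659, minus strand): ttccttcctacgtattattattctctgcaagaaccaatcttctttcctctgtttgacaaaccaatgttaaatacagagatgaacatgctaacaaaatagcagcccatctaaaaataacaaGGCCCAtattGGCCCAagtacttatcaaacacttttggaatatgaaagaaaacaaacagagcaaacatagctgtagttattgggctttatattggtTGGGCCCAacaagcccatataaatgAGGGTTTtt
AT5G15200 (S4 family, chr5:4936430-4936679, minus strand): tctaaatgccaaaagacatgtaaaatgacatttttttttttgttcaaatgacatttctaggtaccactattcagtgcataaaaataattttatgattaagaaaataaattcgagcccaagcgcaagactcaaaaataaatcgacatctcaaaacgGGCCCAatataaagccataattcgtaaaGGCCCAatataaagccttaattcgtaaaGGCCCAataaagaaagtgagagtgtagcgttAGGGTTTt

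*AT3G45030*, a gene of the S10p/S20e family with 4 site II matches, had a large fall. It had 33.4, 64.2 and 44.6 FPKM at WT T2 and 8.92, 5.13 and 14.6 at WT T4, while TM1 T2 had 11.5, 13.5 and 9.35 and TM2 T2 had 12.5, 11.3 and 19.0. Mutant T2 libraries were all below WT T2 and overlapped WT T4. From WT T0 to T6 it fell by 1.16 ± 0.33 with an adjusted p of 0.0055. Without libraries A or C that call was lost.

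Proteins of chloroplast and mitochondrial ribosomes made up 15 members. *PSRP3/1*, a chloroplast ribosomal protein, had the highest FPKM of all members. It had 4756, 5031 and 4569.8 FPKM at WT T0, 5579, 6180.3 and 5607 at T2, 2619, 2485 and 2289 at T4 and 2752, 3196 and 2771 at T6. TM1 T2 had 3713, 3203 and 3812 and TM2 T2 had 3482, 3761 and 3668. The mutants were below WT T2 but remained above WT T4. At T0 all 6 mutant libraries, from 2769 to 3529, were below WT, by 0.51 ± 0.11 in TM1 and 0.68 ± 0.11 in TM2 (limma adjusted p of 0.0014 and 1.5e-05), under the 2-fold limit.

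*emb2394*, a chloroplast L6 protein needed for embryo development, shows another course. It had 1855, 2121 and 1943 FPKM at WT T0, 1947, 1778 and 1764 at T2, 1017, 973 and 977 at T4 and 879, 889 and 908 at T6. TM1 T0 had 1751, 2075 and 2219 and TM1 T2 had 977, 1045 and 1003. TM2 T0 had 1621, 1762 and 1745 and TM2 T2 had 1017, 1132 and 971. At T0 TM1 overlapped WT and TM2 lay just below it, and 2 days later both isolates were near the WT T4 level. It fell from T0 to T6 by 1.14 ± 0.10 in WT, 1.31 ± 0.10 in TM1 and 1.27 ± 0.10 in TM2 (adjusted p of 1.5e-11, 6.2e-13 and 1.5e-12). Of the 15, 6 were lower at WT T6 than at T0 (all members, 32.6%, and all genes, 4.02%). In the mutants 5 were (all members, 22.6%, and all genes, 2.92%).

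Genes that make the chloroplast's own expression and protein machinery added 7 and 15 members. *SIGA* encodes a sigma factor that directs the plastid RNA polymerase. It had 153, 211 and 175 FPKM at WT T0, 141, 121 and 117 at T2 and 74.2, 71.5 and 61.9 at T4, while the mutants had 69.8 to 77.2 over their 6 T2 libraries. *SIGA* was called lower at T6 than at T0 in WT and in the mutants. *MRL1*, a PPR protein that stabilises the *rbcL* transcript, had 134, 135 and 101 at WT T2 and 41.1 to 49.9 over the 6 mutant T2 libraries.

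*YCF37*, a factor in photosystem I assembly, had 647, 810.4 and 706 FPKM at WT T0, 913, 906 and 853 at T2, 338, 349 and 359.9 at T4 and 329, 344 and 364 at T6. TM1 had 552, 561 and 607 at T0 and 343, 336 and 368 at T2, and TM2 had 403, 381 and 511 at T0 and 449, 447 and 366 at T2. Mutant libraries were below WT at T0 and at T2 and near the WT T4 level at T2. The fall from WT T0 to T6 was 1.05 ± 0.10 (adjusted p of 1.8e-10). Without libraries B it was under 2-fold. *CLPP3*, a subunit of the Clp protease, peaked at WT T2 with 1204, 1000.0 and 1026 and was called in none of the tested comparisons. *AT4G17940*, a tetratricopeptide repeat protein, and *AT2G11910*, an uncharacterized protein, were further members of high FPKM in no class here, with WT T2 values of 778 to 1058 and 1133 to 1298. Their mutant T2 values were 436 to 505 and 686 to 854, and WT and mutant libraries overlapped at T0. *POR C*, which reduces protochlorophyllide in the light, was the member of 17 measured chlorophyll synthesis genes, with 61.8, 74.5 and 63.1 at WT T2 and 29.3 to 42.2 in the mutants.

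**Figure D4:**
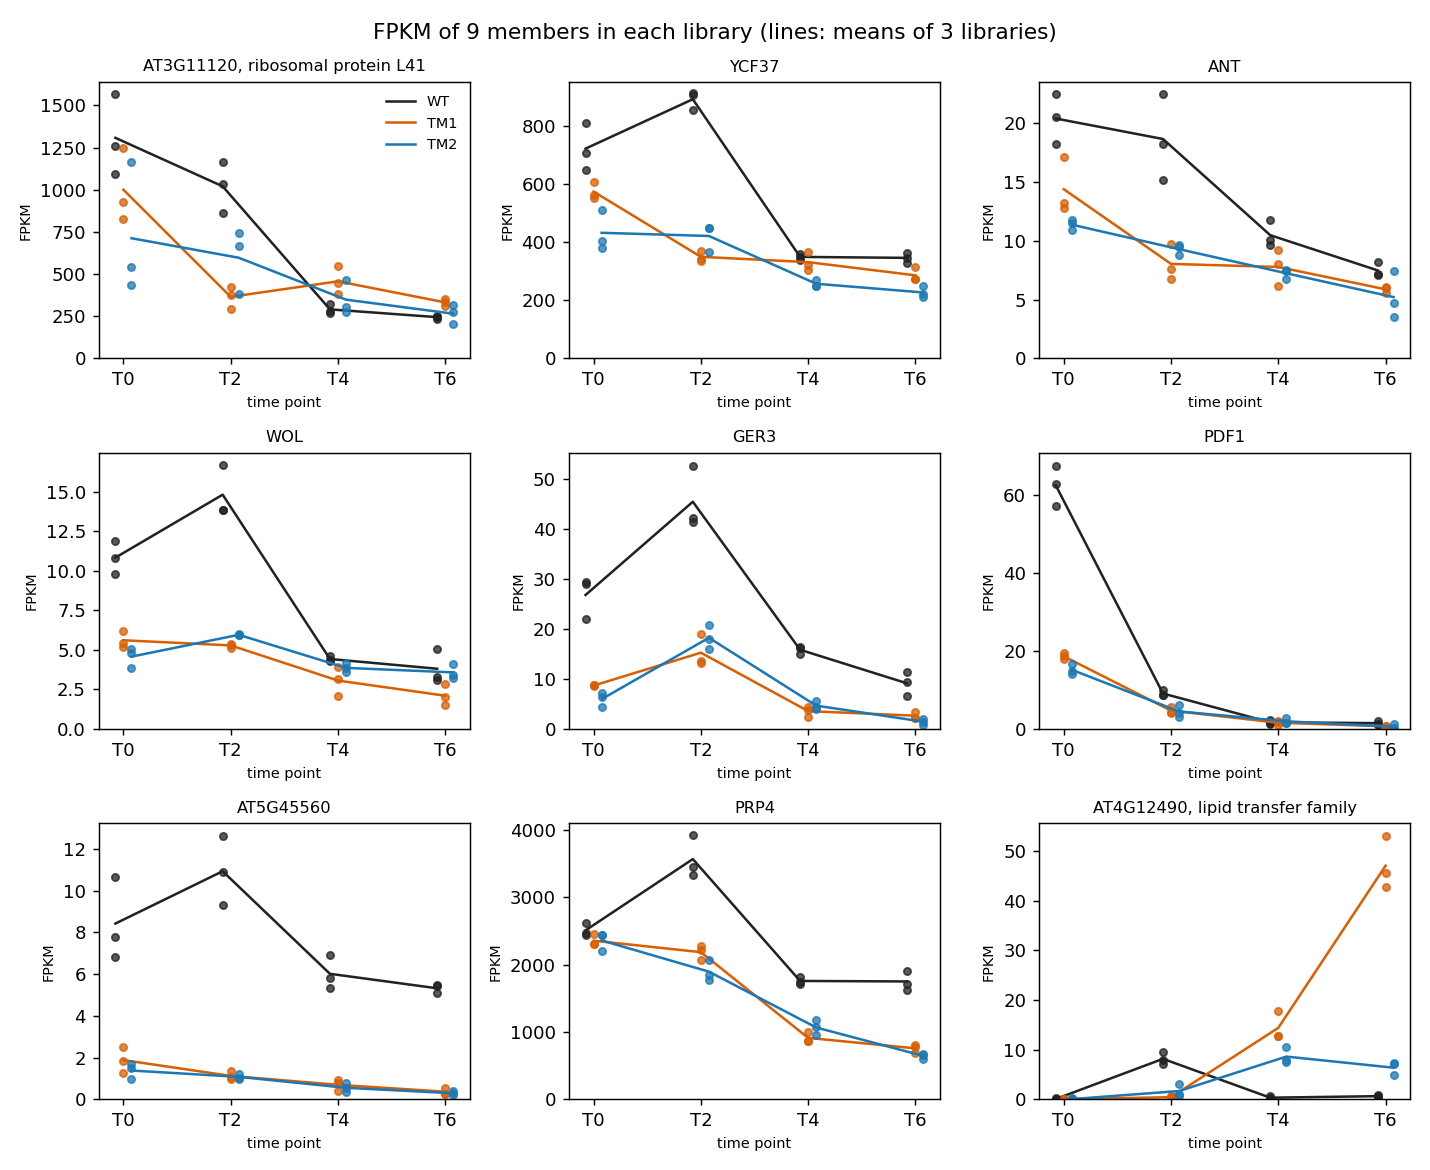
FPKM of 9 members (vertical axes, from 0) in each of 36 libraries at T0, T2, T4 and T6 (horizontal axes), with lines through the means of 3 libraries of WT, TM1 and TM2. *GER3* and *AT5G45560* stay below WT in the mutants at each time point, *PRP4* starts together with WT at T0 and separates, and *AT4G12490* has a WT peak at T2 and a TM1 peak at T6.

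Genes of cell division and chromosomes gave 13 members. Of these, 8 fell from T0 to T6 in WT (all members, 32.6%, and all genes, 4.02%). In the mutants 9 did (all members, 22.6%, and all genes, 2.92%). *HMGB6* had 113, 129.7 and 119 FPKM at WT T0, 150.0, 129 and 117 at T2, 74.7, 69.6 and 64.6 at T4 and 27.5, 28.7 and 36.0 at T6. The 6 mutant T2 libraries had 66.5 to 79.8 and thus lay near WT T4. It fell from T0 to T6 by 1.95 ± 0.13 in WT, 2.13 ± 0.13 in TM1 and 2.04 ± 0.13 in TM2 (adjusted p of 4.8e-14, 6.5e-15 and 1.8e-14).

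*CYCA2;3*, an A-type cyclin, had low values. It had 6.15, 4.68 and 4.29 FPKM at WT T0 and 2.75, 3.32 and 1.81 at T2, against 1.57, 2.18 and 2.73 at TM1 T0 and 1.94, 1.08 and 2.66 at TM2 T0. All 6 mutant T0 libraries were below WT. The difference was -0.94 ± 0.22 in TM1, under 2-fold, and -1.09 ± 0.22 in TM2 (limma adjusted p of 0.0037 and 0.00040). *CYCA3;1*, a further A-type cyclin, had 3.65, 5.33 and 4.61 at WT T2 and 0.855 to 2.38 in the mutants, and at T0 the genotypes overlapped. *CDC45*, a replication fork helicase factor, fell from T0 to T6 by 1.32 ± 0.23 in WT, 1.37 ± 0.23 in TM1 and 1.86 ± 0.23 in TM2 (adjusted p of 1.6e-05, 9.2e-06 and 5.3e-08). Of all 23 measured cell cycle genes, 6 were lower and none was higher at WT T6 than at T0 (all genes, 4.02% and 6.94%). The same counts held in the mutants (all genes, 2.92% and 4.17%). Of 21 DNA replication genes, 7 were lower in WT with none higher, and 3 were lower and 1 was higher in the mutants. The same shares of all genes apply to these counts. The summed FPKM of 8 measured marker genes of dividing cells, 1 of them the member *CYCA3;1*, was 33.6 to 35.6 in WT T2 libraries. It was 32.0 to 35.1 at WT T4, and 22.9 to 27.8 over the mutant T2 libraries. Much of this sum was *SYP111*, with means of 13.7 at WT T2, 10.6 at TM1 T2 and 10.4 at TM2 T2. *CDKB2;1* had 1.81, 2.16 and 2.28 in these groups, and *CDKB2;2* and *AUR1*, at still lower values, also had higher means in both mutants. The other markers had lower means in both. The part of dividing cells in the members' values was not tested.

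Regulators of development and hormone response gave 14 members. *ANT* (AT4G37750, chr4:17739514-17742407, plus strand, TAIR10.1 here and below), a transcription factor that keeps leaf cells dividing, was the member of 20 measured leaf growth factors. It had 18.2, 22.5 and 20.5 FPKM at WT T0, 22.5, 18.2 and 15.2 at T2, 11.7, 10.0 and 9.66 at T4 and 7.18, 8.15 and 7.11 at T6. TM1 had 12.8, 17.1 and 13.2 at T0 and 7.60, 9.69 and 6.78 at T2, and TM2 had 10.9, 11.7 and 11.5 and then 8.77, 9.60 and 9.46. Each mutant T0 library was below each WT T0 library. *ANT* fell from T0 to T6 by 1.33 ± 0.17 in WT, 1.15 ± 0.17 in TM1 and 1.04 ± 0.17 in TM2 (adjusted p of 1.2e-07, 1.7e-06 and 9.0e-06). The mutant call was lost without libraries B or without libraries C.

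*WOL* (AT2G01830, chr2:362983-369707, minus strand), a cytokinin receptor, was the member of 25 measured cytokinin genes. It had 11.9, 10.8 and 9.81 FPKM at WT T0, 16.7, 13.9 and 13.9 at T2, 4.63, 4.36 and 4.28 at T4 and 3.09, 5.02 and 3.3 at T6. The 6 mutant libraries had 3.86 to 6.21 at T0 and 5.14 to 6.00 at T2. Mutant T0 libraries were below those of WT T0 and WT T2, overlapped WT T4 and spanned the mutant T2 values. Of the 25, 6 were lower in the mutants at T0 (all genes, 0.52%) and none was higher (all genes, 0.869%), with a median of -0.80. For *WOL* the difference at T0 was -0.84 ± 0.17 in TM1 and -1.09 ± 0.17 in TM2 (adjusted p of 0.00065 and 9.1e-06), and the first is under 2-fold. *AT4G34760*, a SAUR auxin response gene, was called lower at T0, with 58.1, 70.1 and 74.2 in WT and 21.8 to 36.0 in the mutants, a difference of -1.24 ± 0.17 and -1.25 ± 0.17 (adjusted p of 4.3e-06 and 1.8e-06).

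*ULT1*, a trithorax group protein that limits meristem size, had its high level at T0. It had 30.8, 32.1 and 33.0 FPKM at WT T0, 14.2, 12.0 and 13.8 at T2 and 6.80, 6.18 and 7.01 at T4, while the mutants had 5.0 to 6.91 over their T2 libraries. At T2 the mutants were at the WT T4 level or less. The fall from T0 to T6 was 2.32 ± 0.17 in WT, 1.82 ± 0.17 in TM1 and 1.74 ± 0.17 in TM2 (adjusted p of 6.9e-13, 2.1e-10 and 5.8e-10).

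Cell wall and leaf surface genes gave 12 members. Of these, 3 were lower in the mutants at T0 (all genes, 0.52%) and 5 at T6 (all genes, 0.597%), where the median difference was -0.85. From T0 to T6, 9 fell in the mutants (all members, 22.6%, and all genes, 2.92%). These 12 do not stand for leaf surface genes as a kind. The 37 measured wax, cutin and cuticle genes, none of them a member, had median differences from WT T2 of 0.82 at TM1 T2 and 0.42 at TM2 T2. Of the 37, 3 were higher in the mutants at T0 (all genes, 0.869%) and none was lower (all genes, 0.52%). *GER3* (AT5G20630, chr5:6975029-6976036, minus strand), a germin-like protein of the cell wall, had 21.9, 29.1 and 29.3 FPKM at WT T0, 42.2, 41.4 and 52.6 at T2, 16.2, 14.9 and 16.4 at T4 and 6.56, 9.30 and 11.4 at T6. The 6 mutant libraries had 4.33 to 8.77 at T0, 13.2 to 20.8 at T2, 2.46 to 5.60 at T4 and 0.884 to 3.48 at T6. WT and both isolates were highest at T2, and the mutants were below WT with no overlap at each time point. The difference was -1.51 ± 0.20 in TM1 and -2.01 ± 0.20 in TM2 at T0 (adjusted p of 1.9e-06 and 3.3e-09), and -1.46 ± 0.20 and -2.04 ± 0.20 at T6 (3.4e-06 and 3.8e-09).

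*PDF1* (AT2G42840, chr2:17826071-17827648, minus strand), an epidermal proline-rich protein, had 62.9, 57.4 and 67.6 FPKM at WT T0, 8.64, 8.59 and 10.1 at T2, 1.49, 2.32 and 1.29 at T4 and 1.09, 1.37 and 2.00 at T6. TM1 had 19.4, 18.6 and 18 at T0 and TM2 had 14.1, 16.6 and 14.9. The mutants were far below WT at T0, and at T4 WT and mutant libraries overlapped at low values, between 1.03 and 2.82. The difference at T0 was -1.69 ± 0.23 in TM1 and -1.97 ± 0.23 in TM2 (adjusted p of 2.2e-06 and 5.7e-08). The summed FPKM of 6 epidermal markers, *PDF1* among them, was 235 to 257 at WT T0 and 289.5 to 456 in the mutants. Much of this sum was *KCS10* and *KCS6*, with means of 98.0 and 46.4 at WT T0, 153 and 96.4 at TM1 T0 and 207 and 164 at TM2 T0. Of the 6, 1 was called higher in the mutants at T0 (all genes, 0.869%) and 1, *PDF1*, lower (all genes, 0.52%).

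*PRP4* (AT4G38770, chr4:18096606-18098633, minus strand), an abundant proline-rich wall protein, took another course. It had 2477, 2613 and 2443 FPKM at WT T0, 3327, 3933 and 3446 at T2, 1711, 1749.9 and 1818 at T4 and 1719, 1906 and 1631 at T6. The 6 mutant libraries had 2202 to 2456 at T0, 1780.4 to 2273 at T2, 870.3 to 1176 at T4 and 603 to 808 at T6. The mutants overlapped WT at T0 and were below it afterwards. WT libraries of T4 and T6 overlapped, while mutant libraries of T6 were all below those of T4. At T6 the difference was -1.21 ± 0.09 in TM1 and -1.44 ± 0.09 in TM2 (adjusted p of 9.8e-12 and 1.7e-13), and the interaction with time was -1.11 ± 0.13 and -1.35 ± 0.13 (2.5e-07 and 2.8e-09), called under each alternative tried.

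*FLA8*, a fasciclin-like arabinogalactan protein, had 339.9, 438 and 360.4 FPKM at WT T6 and 143 to 189 in the mutants. *ATCSLA09*, which makes glucomannan, had 4.26, 4.08 and 2.59 at WT T6 and 0.830 to 1.65 in the mutants. *AT1G29660*, a GDSL lipase, had 60.3, 57.4 and 56.4 at WT T6 and 18.7 to 25.2 in the mutants. Each was called lower at T6, with no overlap. Without libraries B, *FLA8* and *ATCSLA09* were not called in both isolates.

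Of members in no class, *AT5G45560* (chr5:18465283-18470944, plus strand), a protein with pleckstrin homology and lipid-binding START domains, had the lowest mutant differences of all members at T6. It had 6.81, 10.7 and 7.81 FPKM at WT T0, 12.6, 9.30 and 10.9 at T2, 6.94, 5.80 and 5.32 at T4 and 5.41, 5.48 and 5.08 at T6. The 6 mutant libraries had 0.957 to 2.54 at T0, 0.967 to 1.35 at T2, 0.375 to 0.931 at T4 and 0.207 to 0.557 at T6. It was low in the mutants at each time point and not only at T2. The difference was -1.71 ± 0.19 and -1.98 ± 0.19 at T0 and -2.21 ± 0.19 and -2.29 ± 0.19 at T6 in TM1 and TM2 (adjusted p of 6.5e-08, 1.2e-09, 2.1e-10 and 9.1e-11).

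*AT1G04800*, a glycine-rich protein, had the largest fall of all members from T0 to T6 in WT, in TM1 and in TM2. It had 955, 1588 and 1191 FPKM at WT T0, 408, 299 and 327 at T2, 65.1, 67.8 and 80.8 at T4 and 31.6, 34.2 and 28.5 at T6. The 6 mutant libraries had 594 to 729 at T0, 103 to 119 at T2, 24.7 to 41.1 at T4 and 4.66 to 17.2 at T6. WT and mutants declined at every step, and mutants were lower throughout. The fall from T0 to T6 was 5.23 ± 0.22 in WT, 6.00 ± 0.22 in TM1 and 6.28 ± 0.22 in TM2 on the log2 scale (adjusted p of 7.2e-19, 3.7e-20 and 1.3e-20). *AT4G29020*, a further glycine-rich protein, fell by 4.69 ± 0.26, 4.52 ± 0.26 and 3.99 ± 0.26 (adjusted p of 7.7e-16, 2.4e-15 and 5.0e-14).

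*AT5G61412*, an uncharacterized protein, had the lowest mean of the differences that chose the members. It had 17.1, 43.5 and 23.7 FPKM at WT T2, 5.24, 5.01 and 1.39 at WT T4 and 1.08 to 5.21 over the 6 mutant T2 libraries. *NAC097*, of the NAC transcription factor family, had 12.5, 8.12 and 10.8 at WT T2, 1.99, 3.5 and 3.82 at WT T4 and 0.751 to 4.9 in the mutants at T2. Both had mutant T2 libraries in or near the WT T4 range.

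*AT4G24275* had 6.36, 14.3 and 15.5 FPKM at WT T0 and 12.5 to 19.9 in the mutants, and 6.51, 5.49 and 4.79 at WT T6 against 0.27 to 1.39 in the mutants. The groups overlapped at T0 and not at T6. At T6 the difference was -1.75 ± 0.32 in TM1 and -1.80 ± 0.32 in TM2 (adjusted p of 0.00036 and 0.00015). *AT5G01015*, likewise uncharacterized, had 7.92, 11.8 and 7.55 at WT T6 and 0.279 to 5.02 in the mutants, and its call was lost without any letter of library.

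Some calls at T0 rest on few reads. *AT5G45670*, a GDSL lipase, had 1.51, 6.93 and 5.91 FPKM at WT T0 and 0.306 to 1.52 in the mutants, and its call was lost without libraries B or C. *AT1G35513* had 7.51, 1.17 and 1.41 at WT T0 and was listed at 0 in 5 of 6 mutant libraries, and its call was lost without libraries A.

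Neighbours *AZI1*, *EARLI1* and *AT4G12490* on chromosome 4, which encode related lipid transfer proteins linked to cold and defense, had high values in mutant libraries at T6, *AZI1* in TM1 alone and *EARLI1* mainly in TM1. *AT4G12490* (chr4:7409621-7410406, minus strand) had 9.47, 7.06 and 7.96 FPKM at WT T2 and 0 to 0.947 in the other WT libraries. TM1 had 17.8, 12.7 and 12.8 at T4 and 45.4, 52.9 and 42.7 at T6, and TM2 had 7.96, 7.44 and 10.5 at T4 and 7.03, 7.28 and 4.84 at T6. The 6 mutant T2 libraries had 0.181 to 3.13. WT libraries were high at T2 alone, and mutant libraries at T4 and T6. The difference from WT at T6 was 4.87 ± 0.24 in TM1 and 2.16 ± 0.24 in TM2 (adjusted p of 3.5e-16 and 6.3e-08), the single member that was higher at T6, and TM1 was above TM2 by 2.71 ± 0.24 (2.4e-09).

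*EARLI1* had 12.4, 11.5 and 13.6 FPKM at TM1 T6, 0.754, 1.06 and 0.787 at TM2 T6 and was listed at 0 in each WT T6 library. *AZI1* had 2.87, 2.43 and 2.70 at TM1 T6 and 0 to 0.551 in TM2 and WT, on 125 reads in all 36 libraries. All 3 were higher in TM1 than in TM2 at T6, where 4 members were (all genes, 0.478%) and none was lower (all genes, 0.0669%), with 13 lower at an unadjusted p under 0.05 and none by voom. The fourth was *NEET*, an iron-sulfur protein, with 17.3, 16.7 and 16.8 at TM1 T6, 8.58, 4.12 and 4.74 at TM2 T6 and 23.2, 21.3 and 19.7 at WT T6. At T0 TM1 was higher than TM2 in 1 member (all genes, 0.314%), *AT2G21580* of the S25 ribosomal family, and lower in none (all genes, 0.0875%; none by voom), and the call was lost without libraries B. At T4 TM1 was higher for *AT4G34760* (all genes, 0.725%) and lower for *EARLI1* and *AT5G23360* (all genes, 0.365%). The calls of *AT4G34760* and *EARLI1* were lost with median ratio scaling, with quantile normalization, with a pseudocount of 5 and without libraries C, where *EARLI1* had -0.58 (adjusted p of 0.36).

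The change of the mutant difference between T0 and T6 was called in both isolates for 5 members. It was upward for *AT4G12490*, *EARLI1* and *PDF1* (all genes, 0.412%) and downward for *PRP4* and *AT4G24275* (all genes, 0.659%). The calls of *EARLI1* and *PDF1* were lost without any one letter of library, and that of *AT4G24275* without libraries A or B. *PDF1* was not called with a pseudocount of 0.1 either, where its mean over isolates was 0.57 (limma adjusted p of 0.76), nor in the voom fit, with 0.52 (adjusted p of 0.87). *EARLI1* was not called with a replicate block (adjusted p of 0.053), a filter at mean FPKM 1 (0.056), a pseudocount of 5 or median ratio scaling. *AT4G24275* was not called with a pseudocount of 0.1 (adjusted p of 0.053) or 5. The call of *AT4G12490* was lost in the voom fit, where its adjusted p was 0.071.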

How the data were processed

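Leaf 6 of WT, TM1 and TM2 was measured at 4 time points in directional 3′ libraries (BrAD-seq). The authors aligned reads to TAIR10 (Rsubread). The deposited values are FPKM, made with NOISeq, of genes that passed HTSFilter. Strand use in counting is not given in the sources used here. FPKM of all 19437 genes could be turned back into whole reads (largest deviation 0.000126 reads), which gave the depth of each library, from 4405524 to 11709917 reads. Depth limits the precision of genes with few reads.

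Values were taken as log2(FPKM + 1), so that fold changes of low genes are understated. The mean level of 12 groups was fitted with limma 3.58.1 (eBayes with a trend) in R 4.3.3 on 36 libraries and all genes, with Benjamini-Hochberg adjustment. A gene was called at an adjusted p under 0.05 and at least 2-fold, in both TM1 and TM2 and in 1 direction where mutants were compared. Values after ± are standard errors. Tables and plots were made with Python 3.11.15, pandas 2.3.3, numpy 2.4.6, scipy 1.17.1 and matplotlib 3.10.9. Upstream sequences of 250 bases came from RefSeq assembly TAIR10.1, in which 19332 genes were found by locus name. The scripts were tested on simulated data.

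Members, gene lists and the genes named were chosen with earlier results of these data known, and classes of members after their values were seen. Named genes were the 10 with the lowest mean of the 3 differences, the 10 with the highest WT T2 FPKM, up to 5 called in each direction at T0 and at T6, up to 3 called in each direction for mutants T6 against T0, up to 4 of each list, and the 3 on either side of the limit. *RPL24A*, *P40*, *SIGA*, *MRL1*, *HMGB6*, *ULT1*, *AT1G29660*, *AZI1*, *NEET* and others outside this rule were chosen after their values were seen. For 18 list symbols shared by several genes, the intended locus was set by hand. Alternatives were 2 other pseudocounts, a filter at mean FPKM 1, scaling by median ratio or quantiles, leaving out each letter of library, a replicate block, eBayes without a trend, voom on recovered reads and no fold limit, and other limits for membership. The letters A to C name parts of 1 pool, and pools share nothing by letter.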

Additional observations from a re-analysis of the deposited data

Results flagged for a closer look

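The change of the mutant difference from WT between T0 and T6, tested as an interaction in limma, was past the threshold in both isolates for 5 members. Its mean over the isolates was 3.54 on the log2 scale for *AT4G12490* and 2.43 for *EARLI1*, both higher in TM1 than in TM2 at T6. It was 1.2 for *PDF1*, a gene that was low in the mutants at T0 and near its lowest level in all plants at T6. The value of *PDF1* was 0.57 with a pseudocount of 0.1 and 0.52 in the voom fit (adjusted p of 0.76 and 0.87), and its call was then lost. It was -1.23 for *PRP4* and -2.14 for *AT4G24275*, an uncharacterized protein, which were near WT at T0 and below it at T6.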

How the results depend on the processing

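Of 72 gene results past the threshold, 35 remained so under all 12 alternatives and none turned its direction. With a pseudocount of 5, called members were 3 of T0 and 5 of T6 for mutants against WT, 42 for mutants T6 against T0, 68 for WT T6 against T0, 26 for mutants T4 against T0, 2 for mutants T6 against T4, 0 for TM1 against TM2 at T0 and at T4, and 3 for the interaction. With no fold limit they were, in the same order, 41, 26, 176, 226, 154 and 14, then 25, 26 and 17 for TM1 against TM2 at T0, T4 and T6. With a pseudocount of 0.1, TM1 against TM2 gave 2 at T0 and 8 at T4. At T4 it gave 1 with median ratio scaling and 0 with quantile normalization. Leaving out one letter gave 2 to 4 for mutants T6 against T4, 0 to 1, 1 to 6 and 3 to 5 for TM1 against TM2 at T0, T4 and T6, and 2 to 3 for the interaction. The first 5 counts then ranged from 6 to 8, 9 to 11, 70 to 81, 105 to 118 and 41 to 49. The rule kept 559 genes at a limit of -0.5, 110 at -0.8, 614 with a pseudocount of 0.1 and 162 with 5, and 323 to 420 without one letter. Of the 337 members, 230 were still kept without libraries A, 250 without B and 276 without C. With median ratio scaling the rule kept 474 genes, all 337 among them, and with quantile normalization 489, with 328 of the 337. The cause of these moves was not tested.

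With library letter as a replicate block, called members were 9, 12, 77, 110, 47 and 4, then 1, 3 and 4 for the isolates and 4 for the interaction. Letters did not pair the libraries, with correlations of deviations all above 0.1 in 0 of 66 pairs of groups. Median ratio scaling removed a shift of all genes of 0.13 between WT T0 and T2 and moved members' medians from 0.31 to 0.15 there, and from -0.07 to -0.14 in TM1 and from -0.11 to -0.19 in TM2 against WT at T6.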
